A study of Mus musculus with 6 samples.

Results

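The transcriptome of the ovary of the COH group was described from 2 libraries, COH replicate 1 and COH replicate 2, which were chosen by their sample titles from the 6 libraries of the series. They are bulk RNA sequencing libraries made with an mRNA kit from total RNA of frozen ovaries of ICR mice, an outbred strain. The other 4 libraries, 2 of OHSS mice given nintedanib and 2 of OHSS mice (OHSS is ovarian hyperstimulation syndrome), were not used. The labels carry the name COH without spelling it out, and they name no drug, allele or disease model for this group. The sources used here do not give the age, any hormone given or the number of animals behind a library. Since nothing says that the 2 libraries came from separate animals, the spread between them may be technical. No group was compared with another, and no test of a difference was run.

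An ovary holds follicles, each an oocyte inside layers of granulosa cells and an outer coat of theca cells, set in a stroma with vessels and immune cells. After ovulation the follicle wall becomes a corpus luteum, whose luteal cells make progesterone from cholesterol. Theca cells make androgens, which granulosa cells turn into oestrogens, while granulosa cells also secrete inhibins and activins. An ovary can hold all of these structures side by side.

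Replicate 1 had a total of 34716751 counts and replicate 2 had 28609601 counts. At least 1 count was found for 25796 genes in replicate 1, for 24712 genes in replicate 2 and for 27606 genes in either, out of 51826 rows. Levels are given as CPM, counts scaled to the library total, or, wherever genes are set against each other, as TPM, which also corrects for annotated exon length. A mean with ± is the mean and SD of the 2 libraries. The log2 ratio of a gene between the libraries, and the call of more than 2-fold apart, use CPM throughout, also where TPM is printed beside them. At 1 CPM or more in both libraries stood 14927 genes, and 15424 genes had a mean of 1 CPM or more, which is the set used for counts of genes apart between the libraries. Percentiles are over the 15402 of these genes with an annotated exon length. A mean of 10 CPM or more was reached by 10659 genes, 100 CPM by 2150 genes and 1000 CPM by 66 genes. In replicate 1, 50% of all counts fell on 1098 genes, and in replicate 2 on 1028 genes. An absent gene is limited by depth: a floor of 3 read pairs, taken as 6 counts, corresponds to 0.173 CPM in replicate 1 and 0.210 CPM in replicate 2, for counting error only.

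The 6 genes taken as marks of an ovary were all present. Star, which brings cholesterol to the inner mitochondrial membrane, stood at 609 TPM in replicate 1 and 558 TPM in replicate 2. Cyp11a1, the enzyme that cleaves the cholesterol side chain in the first step of steroid synthesis, stood at 6382 TPM in replicate 1 and 6037 TPM in replicate 2. Inha, the alpha subunit of the inhibins, stood at 3729.8 TPM in replicate 1 and 3883 TPM in replicate 2. All 3 are genes of steroid-making or granulosa cells, and each lay at percentile 98.8 (Star) or higher among the 15402 genes per length. Dcn, decorin of the stromal matrix, had 229 TPM in replicate 1 and 272 TPM in replicate 2. Lhcgr, the receptor for luteinizing hormone, had 169 TPM in replicate 1 and 228 TPM in replicate 2. Zp3, the sperm-binding protein of the oocyte's zona pellucida, had 126 TPM in replicate 1 and 88.8 TPM in replicate 2. The libraries gave the 6 genes the same order, with Cyp11a1 highest and Zp3 lowest, but the ranges of Dcn and Lhcgr nearly touched, at 229 TPM for the lower Dcn value and 228 TPM for the higher Lhcgr value. As means they came to 251 ± 29.9 TPM for Dcn and 199 ± 41.7 TPM for Lhcgr, neighbours whose error ranges overlap.

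**Figure D1:**
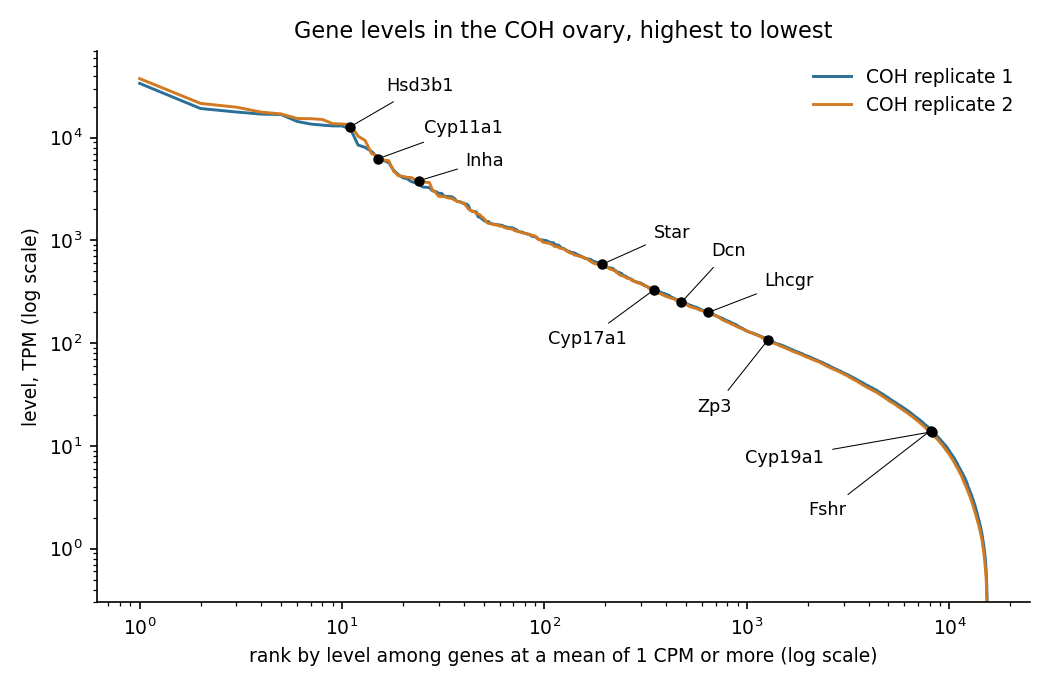
The curve plots the level of each of the 15402 genes with a mean of 1 CPM or more and an annotated exon length, in TPM on a log scale, against its rank on a log scale, for COH replicate 1 (blue) and COH replicate 2 (orange), and black points mark the mean of named genes. Each library is ranked on its own, so the curves compare the spread of levels and not gene by gene. Both curves run close together; Hsd3b1 stands at rank 11, Cyp11a1 at rank 15 and Inha at rank 24, while Fshr and Cyp19a1 lie on the falling right end.

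Steroid synthesis and protein synthesis shared the top of the ranking with the mitochondrial genome. Among the 20 genes with the highest mean CPM, 8 are mitochondrial genes, 4 are pseudogenes annotated on chromosome 1 that copy mitochondrial genes, and 8 are other protein coding genes: Cyp11a1, Hsd3b1, Eef1a1, Gm2a, Sfrp4, Psap, Eef2 and Sparc. These 20 genes took 10.8% of the counts in replicate 1 and 11.8% in replicate 2. The genes annotated on the mitochondrial genome took 5.21% of counts in replicate 1 and 5.96% in replicate 2. The copies on chromosome 1 are not in these shares, so reads counted on them come on top. In CPM, which is not corrected for length, mt-Co1, a subunit of cytochrome c oxidase, was first with 19033 CPM in replicate 1 and 21768 CPM in replicate 2, and Cyp11a1 followed with 11200.5 CPM in replicate 1 and 10891 CPM in replicate 2. Hsd3b1, the enzyme that turns pregnenolone into progesterone, was the third with 8255 CPM in replicate 1 and 9314 CPM in replicate 2. A pair of steroid enzymes thus took the next places behind mt-Co1 in each library. The other mitochondrial genes among the 20 were mt-Cytb, mt-Nd1, mt-Co3, mt-Nd4, mt-Nd2, mt-Co2 and mt-Nd5, and the copies were Gm28437, Gm10925, Gm29216 and Gm28661.

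Per length the order changed. Of the 20 highest genes in TPM, 9 are mitochondrial genes, 5 are nuclear copies of such genes (Gm28439 joins the 4 above), 2 are short miRNA entries and 4 are other protein coding genes. Outside the mitochondrial genome, Hsd3b1 was the highest protein coding gene with 12181 TPM in replicate 1 and 13369 TPM in replicate 2, ahead of Eef1a1, a translation elongation factor, with 7326 TPM in replicate 1 and 6979.6 TPM in replicate 2. Cyp11a1, whose annotated exons are longer, came next. Rplp1, a ribosomal stalk protein, had 4351 TPM in replicate 1 and 4085 TPM in replicate 2, and it was followed by Psap, Rpl23a and Inha. The miRNA entries Gm26377 and Gm27597 are 108 and 80 bases long, and every 50-base window of them also occurs in Eef1a1 and Rpl19 transcripts. Gm26377 had 5988 TPM in replicate 1 and 5976 TPM in replicate 2, and Gm27597 had 4793 TPM in replicate 1 and 4253 TPM in replicate 2. Neither level can be told apart from the messages of those genes. Near-identical copies also make Eef1a1 (39.4% of its 50-base windows occur in other genes) and Rplp1 (60%) uncertain, whereas this share was 4.86% for Hsd3b1, 2.06% for Cyp11a1 and 0% for Inha, Psap and Gm2a.

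The mitochondrial copies show how such sharing reached the ranking. Gm29216 on chromosome 1 is annotated as a pseudogene of 492 bases that copies part of mt-Co1, and 97.1% of its 50-base windows are found in mt-Co1. The start of the copy is shown beside the matching bases of mt-Co1, with the bases that differ in capitals, because these are all the differences between the copy and mt-Co1 over its 492 aligned bases.
mt-Co1: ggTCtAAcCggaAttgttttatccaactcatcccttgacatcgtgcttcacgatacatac
Gm29216: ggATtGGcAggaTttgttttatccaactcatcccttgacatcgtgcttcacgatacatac
The 6 differing bases lie within the first 13 positions of the copy; the first is the substitution T3A, counted from 1 at the start of the printed stretch with the base of mt-Co1 first. The counts of Gm29216, 3449 CPM in replicate 1 and 3975 CPM in replicate 2, put it among the 20 highest genes. For Gm28437, Gm28661, Gm10925, Gm28439 and Gm10222 every 50-base window is found in the mitochondrial gene, and for Gm28438, a copy of mt-Nd3, 98.99% are. Gm28437, a copy of mt-Co3, had 4799.6 CPM in replicate 1 and 5001 CPM in replicate 2, beside 4848 CPM in replicate 1 and 5207 CPM in replicate 2 for mt-Co3 itself. Gm10925, a copy of mt-Atp6, had 4397 CPM in replicate 1 and 5036 CPM in replicate 2 and so exceeded mt-Atp6, which had 822 CPM in replicate 1 and 995 CPM in replicate 2. Both libraries showed this order, and the joint level of mt-Atp6 and Gm10925 was 5219.6 CPM in replicate 1 and 6031 CPM in replicate 2. How the authors assigned reads that fit several genes is not given in the sources used here, so the levels of mt-Co1, mt-Co2, mt-Co3, mt-Atp6, mt-Nd3, mt-Nd4, mt-Nd4l and their copies are uncertain one by one.

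Luteal genes held the largest summed level of the 21 gene lists. The 13 luteal genes, all with a mean of 1 CPM or more, summed to 25623 TPM in replicate 1 and 25738 TPM in replicate 2. Hsd3b1 alone made up 49.7% of the mean sum of 25680 TPM, and Cyp11a1 followed with a mean of 6209 TPM. The list shares both with the steroid synthesis list, so its sum does not measure luteal cells alone. Their median member lay at percentile 98.8 of the 15402 genes per length. In a bulk library fewer cells of a type and less RNA per cell cannot be told apart, here and in every list that follows. Sfrp4, a secreted Wnt-binding protein known from rodent corpora lutea, had 2544 TPM in replicate 1 and 2682 TPM in replicate 2. Scarb1, the receptor that takes up cholesterol esters from high-density lipoprotein, had 725 TPM in replicate 1 and 579 TPM in replicate 2. Fdx1 and Fdxr form the electron chain that feeds Cyp11a1; Fdx1 had 729 TPM in replicate 1 and 669.8 TPM in replicate 2 and Fdxr had 643 TPM in replicate 1 and 511 TPM in replicate 2. These partners stood near Star in level, while Cyp11a1 itself stood 10.5 times as high as Star in replicate 1 and 10.8 times in replicate 2. Hsd3b1 exceeded Star 20.004 times in replicate 1 and 24.0 times in replicate 2. Among receptors that act on luteal cells, Ptgfr, the prostaglandin F2 alpha receptor, had 304 TPM in replicate 1 and 343 TPM in replicate 2 and Prlr, the prolactin receptor, had 156 TPM in replicate 1 and 161 TPM in replicate 2.

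Akr1c18 differed most between the libraries among the luteal genes. It encodes 20 alpha-hydroxysteroid dehydrogenase, which inactivates progesterone. Its level was 1102 TPM in replicate 1 and 541 TPM in replicate 2, slightly more than 2-fold apart. In CPM it had 486 in replicate 1 and 245 in replicate 2, a log2 ratio of 0.99, just inside the 2-fold line. The other 12 luteal genes differed by less, with Parm1 next at a log2 ratio of 0.60.

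The steroid synthesis list followed the same pathway from cholesterol to oestrogen. Of its 14 genes, 13 had a mean of 1 CPM or more, and they summed to 22964 TPM in replicate 1 and 23063.5 TPM in replicate 2. It shares Cyp11a1, Hsd3b1, Star, Fdx1, Fdxr and Akr1c18 with the luteal list. Beyond the steps above, Hsd17b7, an enzyme of oestradiol and cholesterol synthesis, had 657 TPM in replicate 1 and 553 TPM in replicate 2. Cyp17a1, the theca enzyme that makes androgens from progestins, had 217 TPM in replicate 1 and 440.3 TPM in replicate 2, and the libraries lay more than 2-fold apart. Cyp19a1, the aromatase that makes oestrogens, had 17.02 TPM in replicate 1 and 10.4 TPM in replicate 2 and stood at rank 8239 per length. Cyp11a1 exceeded Cyp17a1 29.4 times in replicate 1 and 13.7 times in replicate 2. It exceeded Cyp19a1 375 times in replicate 1 and 579 times in replicate 2. Cyp11a1 thus lay above the enzymes of the androgen and oestrogen steps in both libraries, although the size of the gap differed. Hsd3b6, a relative of Hsd3b1, had 14 counts in replicate 1 and 34 counts in replicate 2, so that Hsd3b1 was the form present at a high level.

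Granulosa genes had the third largest sum, 5214 TPM in replicate 1 and 4901 TPM in replicate 2, and Inha made up most of it. The list has 15 genes, all with a mean of 1 CPM or more, and its median member lay at percentile 84.1. The inhibin alpha subunit pairs with a beta subunit to form an inhibin, while beta subunits alone form activins. Inhbb, the beta B subunit, had 259 TPM in replicate 1 and 121 TPM in replicate 2, and Inhba, the beta A subunit, had 81.5 TPM in replicate 1 and 60.4 TPM in replicate 2. Inha exceeded Inhbb 14.4 times in replicate 1 and 32.1 times in replicate 2, and Inhba 45.8 and 64.3 times. The alpha subunit thus lay above both beta subunits in each library. Foxl2, a transcription factor that maintains granulosa identity, had 242 TPM in replicate 1 and 201 TPM in replicate 2, and Nr5a2, a nuclear receptor needed for ovulation and luteal function in mice, had 98.6 TPM in replicate 1 and 80.2 TPM in replicate 2. Amh, anti-Müllerian hormone of growing follicles, had 299 TPM in replicate 1 and 192 TPM in replicate 2. The 3 lowest members were Cyp19a1, Grem1 and Fshr. Grem1, an antagonist of bone morphogenetic proteins made by cumulus cells, had 13.0 TPM in replicate 1 and 5.65 TPM in replicate 2. Fshr, the receptor for follicle-stimulating hormone, had 18.3 TPM in replicate 1 and 9.86 TPM in replicate 2.

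Both gonadotropin receptors were found, at unequal levels. Lhcgr stood 9.23 times as high as Fshr in replicate 1 and 23.2 times in replicate 2. Lhcgr was higher in replicate 2 and Fshr in replicate 1, so the ratio moved by more than 2-fold between libraries of one group. The bases before the start of both receptor genes and of Hsd3b1, the highest protein coding gene outside the mitochondrial genome, are shown, as the receptors that pass on the gonadotropin signal and the most abundant of the steroid enzymes. They come from RefSeq on GRCm38.p6, 250 bases before the gene start on the gene's strand, and none of them overlaps a GENCODE transcript of its gene.
Hsd3b1: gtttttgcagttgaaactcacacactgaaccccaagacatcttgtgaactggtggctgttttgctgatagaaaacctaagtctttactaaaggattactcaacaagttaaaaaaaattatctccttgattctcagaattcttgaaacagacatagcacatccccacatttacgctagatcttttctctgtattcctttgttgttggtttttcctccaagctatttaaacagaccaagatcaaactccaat
Lhcgr: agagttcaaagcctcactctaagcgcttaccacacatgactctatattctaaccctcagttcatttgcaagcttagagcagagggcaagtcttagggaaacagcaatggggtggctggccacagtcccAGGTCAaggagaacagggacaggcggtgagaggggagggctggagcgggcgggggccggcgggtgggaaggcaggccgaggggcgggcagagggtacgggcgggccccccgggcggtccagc
Fshr: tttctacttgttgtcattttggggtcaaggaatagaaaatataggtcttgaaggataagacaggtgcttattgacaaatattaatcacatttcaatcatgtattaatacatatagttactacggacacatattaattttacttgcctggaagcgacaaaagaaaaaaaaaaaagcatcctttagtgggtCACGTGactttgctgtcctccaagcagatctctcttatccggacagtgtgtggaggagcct
The windows are chr3:98859795-98860044 on the minus strand for Hsd3b1, chr17:88792015-88792264 on the minus strand for Lhcgr and chr17:89200676-89200925 on the minus strand for Fshr. Capitals mark 2 motifs searched on both strands. AGGTCA, with TGACCT as its reverse complement, is the core site read by several nuclear receptors, and it begins 122 bases before the Lhcgr start. CACGTG, an E-box that reads alike on both strands, begins 61 bases before the Fshr start. Of 32851 promoter windows of this length in the table, 14.0% held AGGTCA or TGACCT and 6.02% held CACGTG. The Hsd3b1 window holds neither. The matches describe the letters only.

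The 12 hormone receptors, all with a mean of 1 CPM or more, summed to 783 TPM in replicate 1 and 865 TPM in replicate 2. None of them lay more than 2-fold apart, beside 4.77% of all genes. Their means ran from 3.60 to 901 CPM. The share of all genes fell with level, from 12.1% at 1 to 5 CPM to 1.15% at 100 to 1000 CPM, so 0 of 12 is near it. Igf1r, the receptor for insulin-like growth factor 1, had 33.5 TPM in replicate 1 and 29.3 TPM in replicate 2. Ptgfr exceeded Lhcgr 1.798 times in replicate 1 and 1.504 times in replicate 2.

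**Figure D2:**
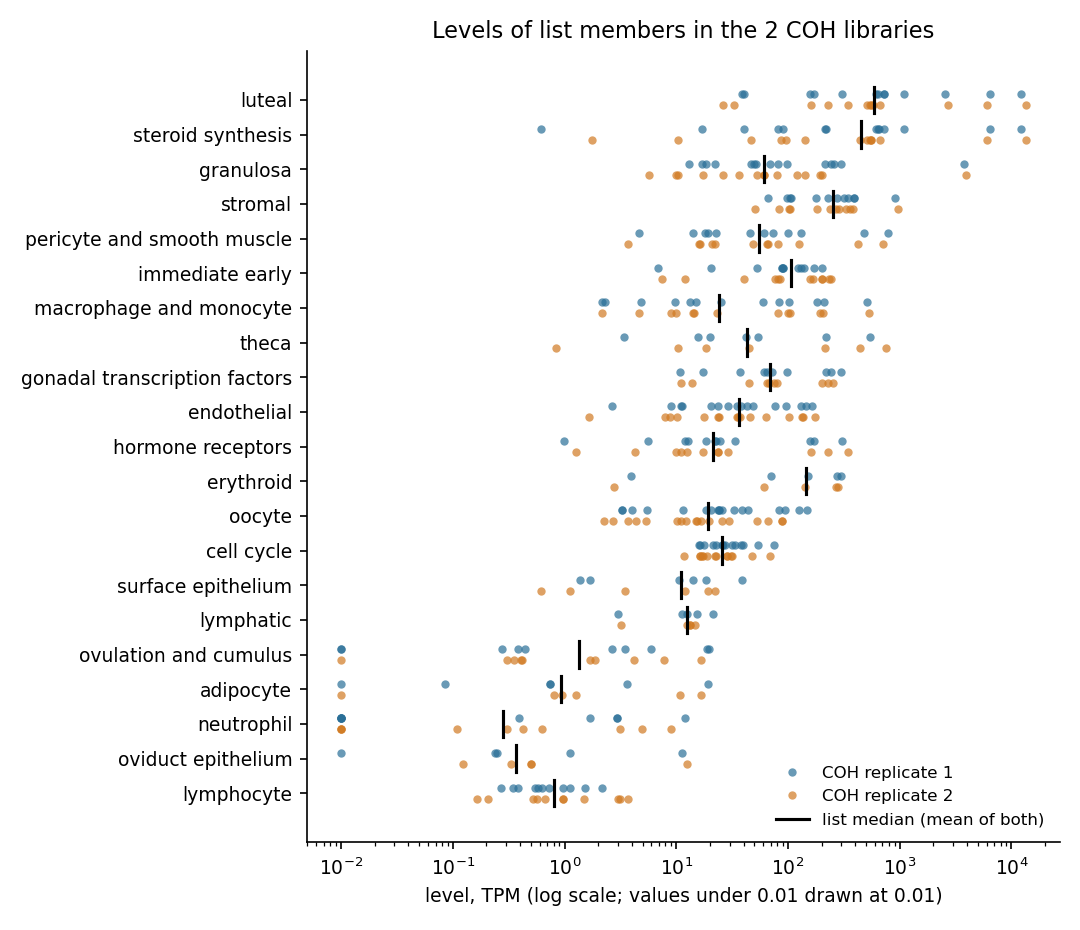
Each row is a gene list and each point is a member's level in TPM on a log scale, in COH replicate 1 (blue, upper) and COH replicate 2 (orange, lower), with a black bar at the list median of the 2-library means and lists in order of summed level. The luteal list has the highest median, 583 TPM, and the lymphocyte list has the lowest summed level.

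Theca genes differed between the libraries in both directions. The list has 7 genes, all with a mean of 1 CPM or more, and summed to 894 TPM in replicate 1 and 1477 TPM in replicate 2. Aldh1a1, a retinaldehyde dehydrogenase, was the highest member with 542 TPM in replicate 1 and 748 TPM in replicate 2. Insl3, an insulin-like hormone of theca cells, had 53.8 TPM in replicate 1 and 214 TPM in replicate 2, a log2 ratio of -2.03; its reads are uncertain because 61.8% of its windows also occur in Jak3 transcripts. Cyp17a1 and Insl3 were both higher in replicate 2. Hhip, an inhibitor of hedgehog signalling, ran the other way with 3.37 TPM in replicate 1 and 0.831 TPM in replicate 2 and a log2 ratio of 1.98. Nr2f2, a nuclear receptor of stromal and theca cells, had 42.2 TPM in replicate 1 and 44.4 TPM in replicate 2, and Ptch1, the hedgehog receptor, had 20.1 TPM in replicate 1 and 18.6 TPM in replicate 2. Of 7 theca genes, 3 lay more than 2-fold apart, against 735 of all 15424 genes (4.77%).

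Stromal genes were abundant in both libraries. The 12 genes, all with a mean of 1 CPM or more, summed to 3410.3 TPM in replicate 1 and 3354 TPM in replicate 2, and the median member lay at percentile 96.98. Mgp, matrix Gla protein, which inhibits calcification, was the highest per length with 904 TPM in replicate 1 and 959 TPM in replicate 2. Col3a1 had 393 TPM in replicate 1 and 384 TPM in replicate 2, Col1a1 had 393 TPM in replicate 1 and 333 TPM in replicate 2 and Col1a2 had 275 TPM in replicate 1 and 240.1 TPM in replicate 2; they encode chains of fibrillar collagens. Of 12 stromal genes, 0 lay more than 2-fold apart, beside the 4.77% of all genes, and their log2 ratios ran from -0.28 for Dcn to 0.33 for Pdgfra, a growth factor receptor of fibroblasts. Sparc, a matrix protein outside the lists, was among the 20 highest genes with 3134 CPM in replicate 1 and 3086 CPM in replicate 2.

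Vascular genes had a smaller sum than the stromal genes and differed little between libraries. The 16 endothelial genes summed to 882 TPM in replicate 1 and 857 TPM in replicate 2. Of the 16 genes, 0 lay more than 2-fold apart, beside 4.77% of all genes. Their means ran from 12.8 to 197 CPM. The share of all genes was 4.30% from 5 to 20 CPM, 2.58% from 20 to 100 CPM and 1.15% from 100 to 1000 CPM, so 0 of 16 is near it. Sox18, a transcription factor of endothelial cells, had 164 TPM in replicate 1 and 173 TPM in replicate 2. Eng, endoglin, a co-receptor for transforming growth factor beta, had 129 TPM in replicate 1 and 134 TPM in replicate 2, and Cdh5, the cadherin of endothelial junctions, had 95.3 TPM in replicate 1 and 102 TPM in replicate 2. Kdr, the main receptor for vascular endothelial growth factor, had 29.2 TPM in replicate 1 and 24.0 TPM in replicate 2, and Pecam1, a junctional adhesion molecule, had 48.7 TPM in replicate 1 and 45.3 TPM in replicate 2. Endothelial markers were thus all above 1 CPM, with Vwf lowest in TPM at 2.66 TPM in replicate 1 and 1.66 TPM in replicate 2. Mural cell genes had a larger sum. Acta2, smooth muscle actin, had 785 TPM in replicate 1 and 705 TPM in replicate 2, Tagln had 475 TPM in replicate 1 and 424 TPM in replicate 2, and Pdgfrb, the receptor that marks pericytes, had 132 TPM in replicate 1 and 125 TPM in replicate 2. The 12 pericyte and smooth muscle genes summed to 1751 TPM in replicate 1 and 1593 TPM in replicate 2. Lymphatic genes had the smallest sum of the vessel lists, with 63.5 TPM in replicate 1 and 56.8 TPM in replicate 2 over 5 genes. Flt4, the lymphatic receptor for vascular endothelial growth factor C, had 15.3 TPM in replicate 1 and 14.6 TPM in replicate 2, and Prox1, the transcription factor that sets lymphatic fate, had 2.98 TPM in replicate 1 and 3.22 TPM in replicate 2.

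Immune transcripts came mainly from the macrophage list. Its 13 genes, all with a mean of 1 CPM or more, summed to 1219 TPM in replicate 1 and 1288 TPM in replicate 2. Lyz2, a lysozyme, had 511 TPM in replicate 1 and 529 TPM in replicate 2. The 3 chains of complement C1q, which macrophages secrete, differed little between libraries. C1qa had 209 TPM in replicate 1 and 205 TPM in replicate 2, C1qb had 183 TPM in replicate 1 and 192 TPM in replicate 2 and C1qc had 102 TPM in replicate 1 and 99.0 TPM in replicate 2. Csf1r, the receptor macrophages need to survive, had 25.4 TPM in replicate 1 and 23.3 TPM in replicate 2. The exception was Cx3cr1, the fractalkine receptor, with 2.31 TPM in replicate 1 and 9.94 TPM in replicate 2. Its log2 ratio was -2.14. It was the only macrophage gene of the 13 more than 2-fold apart, beside 735 of all 15424 genes (4.77%).

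Neutrophil and lymphocyte genes were near the lower limit. Of 10 neutrophil genes, 2 had a mean of 1 CPM or more: S100a9, a calcium-binding protein of myeloid cells, with 2.28 CPM in replicate 1 and 1.748 CPM in replicate 2, and Csf3r, the receptor for granulocyte colony-stimulating factor, with 3.89 CPM in replicate 1 and 4.26 CPM in replicate 2. Ly6g, Elane and Camp, which mark neutrophils and their granules, had 0 counts in both libraries, which allows up to 0.173 CPM in replicate 1 and 0.210 CPM in replicate 2 each. Of 11 lymphocyte genes, only Cd4, the co-receptor of helper T cells, which macrophages can also carry, reached a mean of 1 CPM, with 3.20 CPM in replicate 1 and 4.79 CPM in replicate 2. Cd79a of B cells had 10 counts in replicate 1 and 47 counts in replicate 2, and Cd3g of the T cell receptor had 26 and 34 counts. The neutrophil list summed to 19.9 TPM in replicate 1 and 18.5 TPM in replicate 2, and the lymphocyte list to 9.25 TPM and 15.4 TPM. The 5 red cell genes summed to more, 802 TPM in replicate 1 and 756 TPM in replicate 2. Hba-a1 had 301 TPM in replicate 1 and 269.7 TPM in replicate 2 and Hbb-bs had 277 TPM in replicate 1 and 279 TPM in replicate 2. Both are globin chains with near-identical copies (72.3% and 53.2% of their windows occur in another globin gene), so their levels are uncertain one by one. Alas2, the first enzyme of haem synthesis in erythroid cells, had 3.43 CPM in replicate 1 and 2.48 CPM in replicate 2.

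Oocyte genes were present in full and were higher in replicate 1. All 18 members had a mean of 1 CPM or more, and they summed to 728 TPM in replicate 1 and 471 TPM in replicate 2. Padi6, a protein of the oocyte's cytoplasmic lattices, was the highest with 147 TPM in replicate 1 and 89.2 TPM in replicate 2. Among the zona pellucida proteins, Zp2 had 83.3 TPM in replicate 1 and 66.0 TPM in replicate 2 and Zp1 had 43.6 TPM in replicate 1 and 29.9 TPM in replicate 2, so that Zp3 exceeded Zp1 2.89 times in replicate 1 and 2.97 times in replicate 2. The ratio of Zp3 to Zp1 thus differed less between the libraries than the level of either gene. Gdf9, the growth factor by which oocytes act on granulosa cells, had 93.3 TPM in replicate 1 and 52.7 TPM in replicate 2, and Nlrp5, part of the maternal complex under the oocyte's membrane, had 25.5 TPM in replicate 1 and 15.03 TPM in replicate 2. Oosp1, a protein secreted by oocytes, had 24.0 TPM in replicate 1 and 11.01 TPM in replicate 2, and Mos, the kinase that holds the egg at metaphase II, had 11.4 TPM in replicate 1 and 5.395 TPM in replicate 2; these 2 of 18 lay more than 2-fold apart, both higher in replicate 1, as did 470 of all 15424 genes (3.05%). Higher in replicate 1 by any amount were 17 of the 18, against 8844 of the 15424 genes (57.3%). The exception was Figla, a transcription factor of young oocytes, with 35 counts in replicate 1 and 39 counts in replicate 2.

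Epithelial and fat cell genes were low. The 6 surface epithelium genes summed to 84.6 TPM in replicate 1 and 58.6 TPM in replicate 2. Upk3b, a uroplakin of the mesothelium-like surface, had 38.4 TPM in replicate 1 and 22.3 TPM in replicate 2, while Lgr5, a stem cell receptor that luteal and stromal cells may also carry, had 14.2 TPM in replicate 1 and 19.2 TPM in replicate 2. Msln, mesothelin, had 10.5 TPM in replicate 1 and 3.46 TPM in replicate 2. Muc16 had 1.37 TPM in replicate 1 and 0.618 TPM in replicate 2. These 2 of the 6 genes lay more than 2-fold higher in replicate 1, as did 470 of all 15424 genes (3.05%). The 5 oviduct genes summed to 13.0 TPM in replicate 1 and 13.9 TPM in replicate 2, and the 6 adipocyte genes to 24.4 TPM and 30.4 TPM. Of the oviduct genes, 2 had a mean of 1 CPM or more. Tppp3, a tubulin-binding protein, made up 88.6% of the sum with 11.3 TPM in replicate 1 and 12.5 TPM in replicate 2, and Ovgp1, the oviductal glycoprotein, had 1.47 CPM in replicate 1 and 0.664 CPM in replicate 2. Foxj1 of ciliated cells had 8 counts in replicate 1 and 14 counts in replicate 2. Of the adipocyte genes, 3 had such a mean. Plin1, which coats lipid droplets and is not limited to fat cells, had 19.3 TPM in replicate 1 and 16.5 TPM in replicate 2, Cfd, adipsin, had 1.21 CPM in replicate 1 and 3.77 CPM in replicate 2, and Lep, leptin, had 0 counts in both libraries. The oviduct and adipocyte lists cover tissue that can come along with a dissected ovary.

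Most genes that rise for a short time around ovulation were low. The 10 genes of ovulation and cumulus expansion summed to 51.5 TPM in replicate 1 and 33.8 TPM in replicate 2, and 5 had a mean of 1 CPM or more. Adamts1, a protease needed for ovulation, had 18.8 TPM in replicate 1 and 16.8 TPM in replicate 2, and Edn2, endothelin 2, had 19.6 TPM in replicate 1 and 7.83 TPM in replicate 2, more than 2-fold apart. Has2, which makes the hyaluronan of the expanding cumulus, had 24 counts in replicate 1 and 16 counts in replicate 2. Ptgs2, the inducible prostaglandin synthase, had 16 and 20 counts, Areg had 0 and 4 counts, and Sult1e1, the oestrogen sulphotransferase, had 0 counts in both libraries. Pgr, the progesterone receptor that is induced by the ovulatory surge, had 0.996 TPM in replicate 1 and 1.27 TPM in replicate 2, the lowest of the 12 hormone receptors. These transcripts were thus low while those of the luteal list were high, in both libraries.

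Transcription factors of the gonad, cell cycle genes and immediate early genes were all present. Nr5a1, the nuclear receptor that drives steroid enzyme genes, had 221 TPM in replicate 1 and 229.5 TPM in replicate 2, and Cebpb, which acts downstream of the luteinizing hormone receptor, had 296 TPM in replicate 1 and 252 TPM in replicate 2. The 10 factors summed to 1121 TPM in replicate 1 and 1041 TPM in replicate 2. All were at a mean of 1 CPM or more and none lay more than 2-fold apart, beside 4.77% of all genes. Their means ran from 35.5 to 354 CPM. The share of all genes was 2.58% from 20 to 100 CPM and 1.15% from 100 to 1000 CPM, so 0 of 10 is near it. Cell cycle genes, all 14 present, summed to 445 TPM in replicate 1 and 379 TPM in replicate 2. Ccnd2, cyclin D2 of dividing granulosa cells, had 53.5 TPM in replicate 1 and 47.8 TPM in replicate 2, and Top2a, a topoisomerase of dividing cells, had 25.4 TPM in replicate 1 and 16.2 TPM in replicate 2. Immediate early genes, which respond within minutes to hormones and other stimuli, summed to 1202 TPM in replicate 1 and 1512 TPM in replicate 2. Zfp36, an RNA-binding protein that destabilizes messages, showed the largest gap with 88.7 TPM in replicate 1 and 157 TPM in replicate 2. Fos had 139 TPM in replicate 1 and 203 TPM in replicate 2, Junb had 122 TPM in replicate 1 and 202 TPM in replicate 2 and Egr1 had 171 TPM in replicate 1 and 234 TPM in replicate 2, 3 transcription factors that were all higher in replicate 2. The list was mixed, since 5 of its 12 genes were higher in replicate 1, against 57.3% of all genes. These were Fosb with 20.3 TPM in replicate 1 and 12.02 TPM in replicate 2, and Ier3, Nr4a1, Btg2 and Dusp1 with log2 ratios of 0.36, 0.19, 0.11 and 0.04.

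Across genes the libraries agreed closely, with a Spearman correlation of 0.979 and a Pearson correlation of 0.979 on log2(CPM + 1), over 15884 genes at 1 CPM or more in at least 1 library. Genes share library and depth and are not replicates, so both are descriptions. The median gene differed 1.12-fold, 44.1% of the 15424 genes lay within 1.1-fold and 87.1% within 1.5-fold. More than 2-fold apart were 735 genes (4.77%), of which 470 were higher in replicate 1 (3.05%) and 265 were higher in replicate 2 (1.72%). The share fell with level: 12.1% of 3190 genes from 1 to 5 CPM, 4.30% of 3698 genes from 5 to 20 CPM, 2.58% of 6386 genes from 20 to 100 CPM, 1.15% of 2084 genes from 100 to 1000 CPM and 0% of 66 genes at 1000 CPM or more. The spread exceeded counting error, with a biological coefficient of variation of 21.8% by edgeR, and a chi-square of 20.4 per degree of freedom when a read pair was taken as 1 count. The counts thus differed by more than sampling noise, which does not show whether they came from separate animals.

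**Figure D3:**
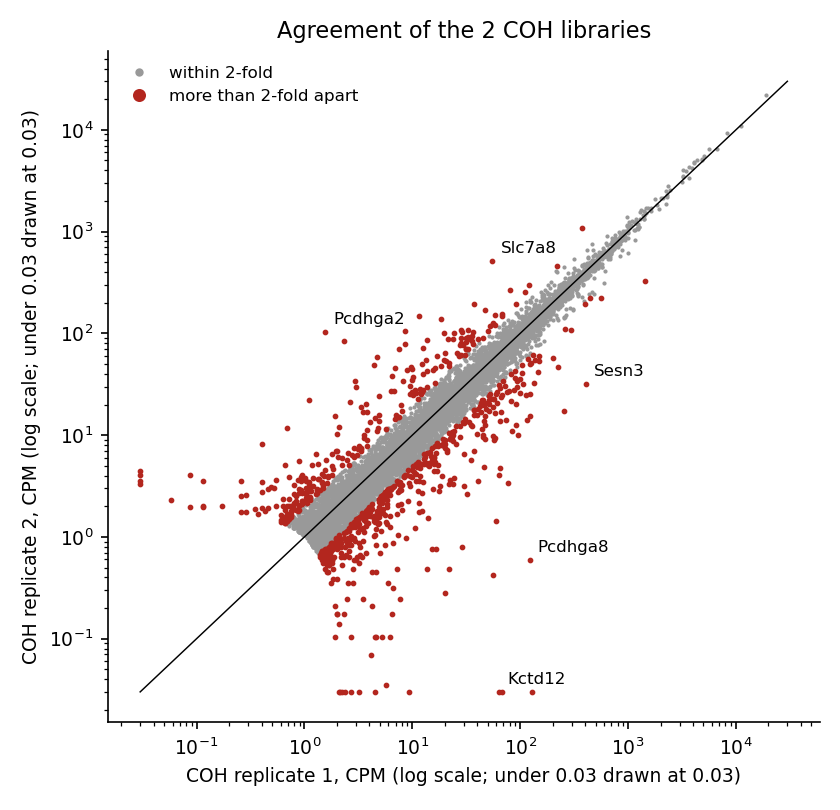
Each point is 1 of 15424 genes with a mean of 1 CPM or more, placed by its CPM in COH replicate 1 and in COH replicate 2 on log axes, with the line of equal level in black. The 735 genes more than 2-fold apart (red) thin out toward high levels, and Kctd12, at 63.7 CPM in replicate 1, has 0 counts in replicate 2.

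Lists differed in the direction of their small gaps. The median log2 ratio of replicate 1 over replicate 2 was 0.61 for oocyte genes, 0.67 for surface epithelium, 0.43 for granulosa genes and 0.24 for cell cycle genes, beside 0.04 for all 15424 genes. Of the 15 granulosa genes, 13 were higher in replicate 1, against 57.3% of all genes, and 2 lay more than 2-fold apart, Inhbb and Grem1, against 4.77% of all genes. Inha, the most abundant of them, was one of the 2 that were higher in replicate 2, with a log2 ratio of -0.10. For luteal genes the median was 0.08, for endothelial genes 0.06, for stromal genes 0.01 and for macrophage genes -0.03. Theca genes had a median of -0.11 and immediate early genes -0.23. By these medians oocyte and granulosa genes stood higher in replicate 1, while luteal, stromal and endothelial genes lay near the median of all genes. Mitochondrial transcripts moved beside this: 0 of 13 were higher in replicate 1, against 57.3% of all genes, and their median was -0.21. Of 81 ribosomal protein genes, 65 were higher in replicate 1, but their median of 0.05 was close to the 0.04 of all genes. The part of the mitochondrial share or of depth in the gaps between lists was not tested.

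**Figure D4:**
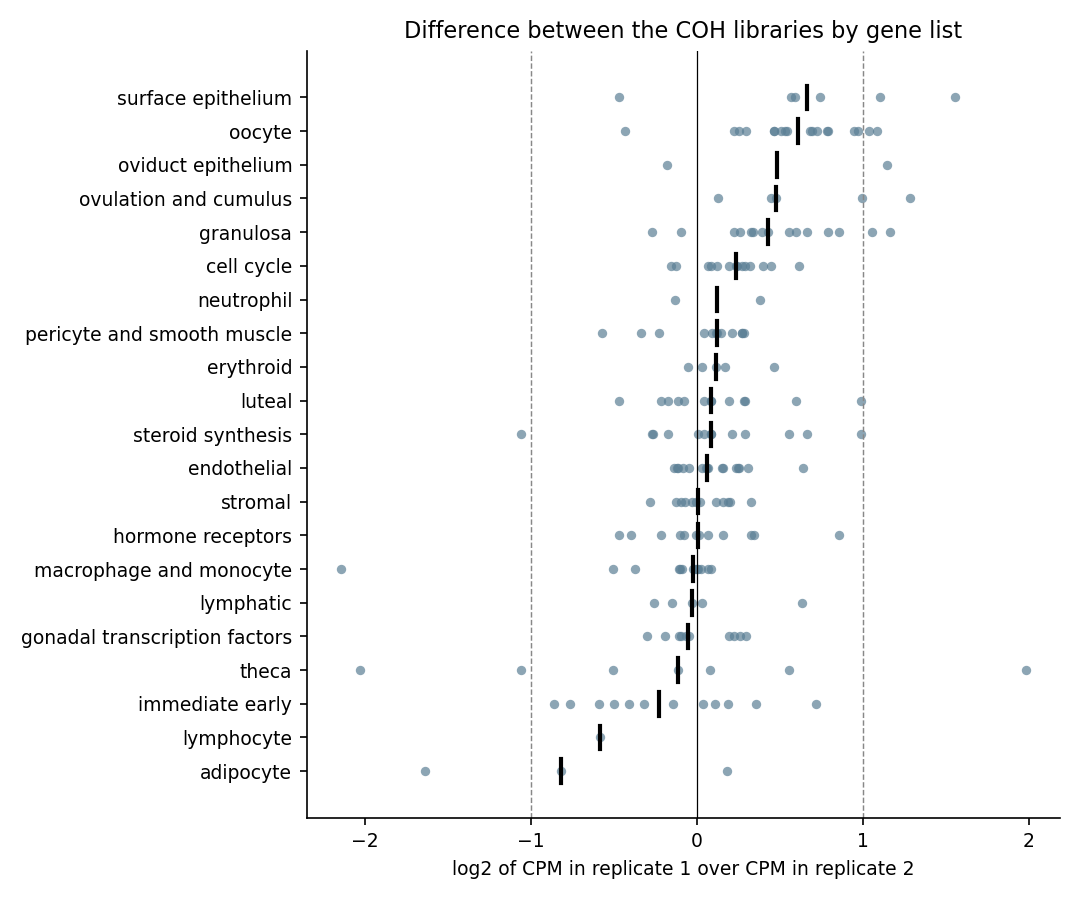
Each point is a list member with a mean of 1 CPM or more, placed by the log2 ratio of its CPM in COH replicate 1 over COH replicate 2, with black bars at list medians and dashed lines at 2-fold. Oocyte, surface epithelium and granulosa genes sit mostly to the right (medians 0.61, 0.67 and 0.43), and theca genes spread from -2.03 for Insl3 to 1.98 for Hhip.

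Several of the largest gaps between the libraries fell on genes that share exons. Pcdhga8, a clustered protocadherin, had 122 CPM in replicate 1 and 0.594 CPM in replicate 2, while Pcdhga2 of the same cluster had 1.56 CPM in replicate 1 and 103 CPM in replicate 2. Pcdhgb8, also of the cluster, had 56.3 CPM in replicate 1 and 0.419 CPM in replicate 2. The Pcdhg genes, on chromosome 18, splice separate first exons to shared last exons, and 12 of the 22 with a mean of 1 CPM or more lay more than 2-fold apart. Summed over the cluster they came to 341.7 CPM in replicate 1 and 339.1 CPM in replicate 2. Ube2v1, a ubiquitin-conjugating enzyme variant, had 18.6 CPM in replicate 1 and 139 CPM in replicate 2, and the overlapping Gm20431 had 129.6 CPM in replicate 1 and 0 CPM in replicate 2, but with Tmem189 the locus summed to 181.2 CPM and 177.7 CPM. At the locus of Setd1a, a histone methyltransferase, Setd1a had 31.2 CPM in replicate 1 and 90.6 CPM in replicate 2, and the second ID, SETD1A, had 67.8 CPM in replicate 1 and 0 CPM in replicate 2. Both summed to 99.0 CPM in replicate 1 and 90.6 CPM in replicate 2. Adat3, a tRNA deaminase subunit that shares exons with Scamp4, had 64.4 CPM in replicate 1 and 4.72 CPM in replicate 2, but the 3 gene IDs of the locus summed to 72.8 CPM and 75.8 CPM. The loci agreed while their genes did not.

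**Figure D5:**
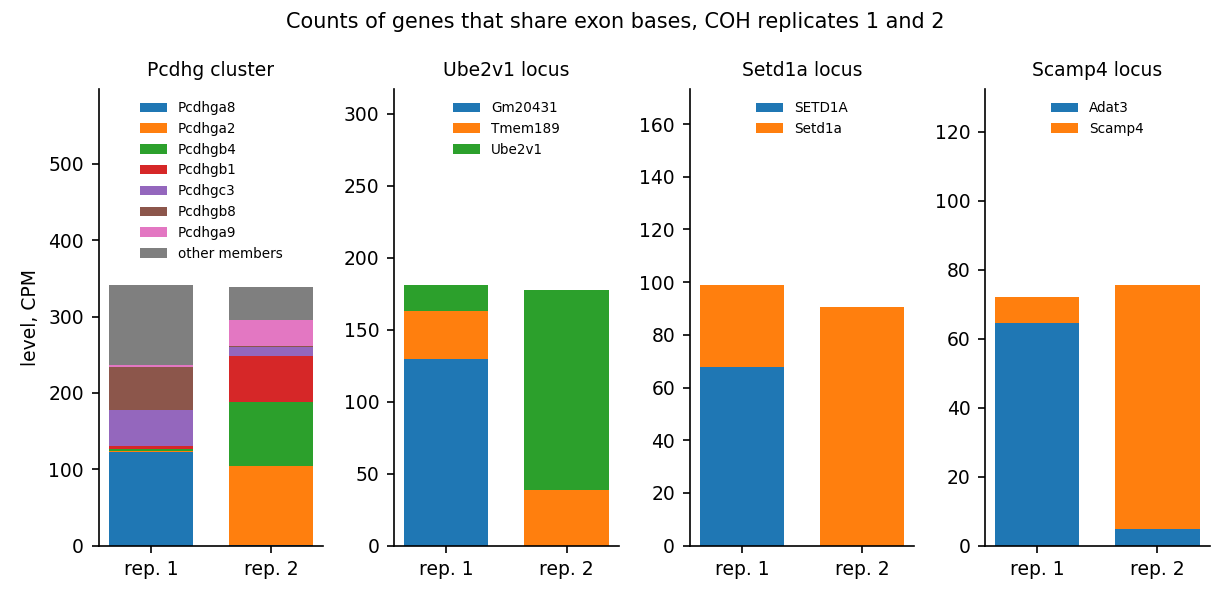
Stacked bars give the CPM of genes that share exon bases at 4 loci, for COH replicate 1 (left bar) and COH replicate 2 (right bar) of each panel. The bars of a panel end at about the same height, 341.7 and 339.1 CPM for the Pcdhg cluster, while the genes that fill them differ.

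Such sharing was more frequent among genes far apart but did not cover them. Of the 735 genes, 733 have an annotated position, and 110 of them (15.007%) overlap an exon of another gene on the same strand, against 1147 of 14669 genes (7.82%) within 2-fold. When the 110 were summed with the genes they overlap, 64 came within 2-fold. Adding a gene of stable level narrows a gap by itself, and no share for other sums was computed. The Pcdhg genes overlap each other and enter this count one by one. Whether reads were divided between overlapping genes was not tested. Other genes far apart have no such partner, or share little. Kctd12 had 2212 counts in replicate 1 and 0 counts in replicate 2, at least 304-fold higher against the floor of 6 counts in a library; its exons overlap only the short Mir5130, in 0.578% of its windows. Sesn3, a stress-induced regulator of growth signalling, had 407 CPM in replicate 1 and 31.9 CPM in replicate 2. Slc7a8, an amino acid transporter, ran the other way with 55.2 CPM in replicate 1 and 515 CPM in replicate 2. Creb1, the transcription factor that answers cyclic AMP, had 63.2 CPM in replicate 1 and 4.09 CPM in replicate 2, and Gabpb2 had 59.9 CPM in replicate 1 and 1.43 CPM in replicate 2. Slc7a8, Creb1 and Gabpb2 thus differed in both directions with no exon shared on their strand. For Sesn3 no overlap value is given here. Overlap with genes on the opposite strand was not examined, and the strand setting of the counts is not known. Higher in replicate 2 were also Uhmk1 with 8.497 CPM in replicate 1 and 105 CPM in replicate 2, Tpbg with 4.44 CPM in replicate 1 and 48.4 CPM in replicate 2 and Cx3cl1, the ligand of Cx3cr1, with 2.996 CPM in replicate 1 and 30.1 CPM in replicate 2. Fgf2, a fibroblast growth factor, had 1.09 CPM in replicate 1 and 22.3 CPM in replicate 2 and shares exon bases with Gm43439. Cwc22, Rab43 and Pde2a share windows with other genes and are uncertain. Cwc22 had 257 CPM in replicate 1 and 17.3 CPM in replicate 2, Rab43 had 77.1 CPM in replicate 1 and 3.43 CPM in replicate 2 and Pde2a had 28.6 CPM in replicate 1 and 0.804 CPM in replicate 2. Tpm3-rs7, 69.4% of whose windows occur in Tpm3, had 11.5 CPM in replicate 1 and 149 CPM in replicate 2. The 10 genes with the largest ratio toward replicate 2 also hold Pcdhgb4, Pcdhgb1 and Pcdhga9 of the cluster above. Among the 15424 genes with a mean of 1 CPM or more, 14 had 0 counts in a library.

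Outside the rule by which genes were named, Fshr, Cyp19a1, Rpl23a, Rpl19, Gm10222, Gm28438, mt-Nd3, mt-Atp6, mt-Nd4l, Fdxr, Akr1c18, Parm1, Hsd3b6, Amh, Jak3, Pdgfra, Vwf, Zp1, Figla, Has2, Ptgs2, Areg, Pgr, Fosb, Ier3, Nr4a1, Btg2, Dusp1, Ube2v1, Gm20431, Tmem189, Setd1a, Scamp4, Sesn3 and Tpm3 were chosen after their values were seen.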

How the data were processed

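Ovary RNA of the COH group was sequenced as 2 bulk libraries. Per the submitters' processing notes, which name tools without roles, Trimmomatic 0.36, HISAT2 2.1.0, StringTie 1.3.3b and the build mm8 were used. The authors deposited raw counts per Ensembl gene, with no values normalized. The sources used here do not give the counting tool, annotation, strand setting or treatment of reads that fit several genes. The libraries held 47163764 reads in replicate 1 and 38691472 reads in replicate 2, with 93.44% and 94.03% of bases at quality 30 or more. Counts came to 147% of read pairs in replicate 1 and 148% in replicate 2, so a pair was taken as 2 counts.

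CPM was counts over the library total. TPM used the union exon length of GENCODE M21 (GRCm38), which matched 51633 of 51826 IDs with 99.9% of counts. The coefficient of variation came from edgeR 4.0.16 in R 4.3.3, with DESeq2 1.42.0 for an alternative scaling. Other steps used Python 3.11.15, pandas 2.3.3, numpy 2.4.6, scipy 1.17.1 and matplotlib 3.10.9. The fold counts and the coefficient of variation were tested on simulated data. Shared sequence was the share of a gene's 50-base transcript windows found in other genes. Promoters were from RefSeq and other sequences from GENCODE M21 transcripts.

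The members and the 21 lists (226 entries, 210 genes) were chosen with earlier results of these data known. Genes were named by rule: the 20 highest by CPM and by TPM, 6 markers, up to 5 of the highest members by CPM of each list, list members at 0 or more than 2-fold apart, and the 10 largest ratios each way at a mean of 5 CPM or more, without predicted, clone or pseudogene names. Alternatives were scaling, filters, pseudocount, fold, length and single libraries.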

Additional observations from a re-analysis of the deposited data

How the results depend on the processing

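No paired analysis was possible because a single group was described and no groups were compared. Of 207 values recomputed under alternatives, 15 of summary results and 15 others moved. A shift counted as a move when it passed 1 SD of the libraries for shares and sums, 1.5 times for counts, 0.01 for correlations, 10% for the coefficient of variation and 0.378 (log2) for list medians. A single library always lies within 1 SD of the mean of 2 libraries. Shares and sums from a single library could thus never count as moved, and they say nothing about stability. Median log2 ratios changed sign with the filter in 4 lists: the adipocyte median was 0.18 at a mean of 10 CPM or more, against -0.82, the lymphatic median 0.0008 at that mean, against -0.03, the oviduct median -0.18 over genes with any count, against 0.48, and the neutrophil median -0.18 over such genes, against 0.12. With TMM and DESeq2 scaling the medians of stromal genes and hormone receptors, near 0, changed sign. No value was had at a mean of 10 CPM or more for neutrophil, lymphocyte and oviduct genes. The share of counts in the 20 highest genes was 24.8% per kb of exon length. It was 8.46% with totals without mitochondrial transcripts, though their nuclear copies were still counted. The Spearman correlation was 0.957 over genes with any count and 0.960 over genes at a mean of 10 CPM or more. The count of genes more than 2-fold apart was 7795 over genes with any count, 271 at a mean of 10 CPM or more and 1996 for a 1.5-fold line. The coefficient of variation was 24.0% over genes with any count and 18.8% at a mean of 10 CPM or more. Summed per kb of exon length (TPM) in place of CPM, granulosa genes came to 5057, luteal genes to 25680.3, theca genes to 1185, stromal genes to 3382, endothelial genes to 869 and macrophage genes to 1253. TPM and CPM are unlike units, and other filters or folds define other sets of genes. What else lay behind these moves was not tested.

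With each library alone, genes at 1 CPM or more numbered 15326 to 15485, the share of the 20 highest genes ran from 10.8% to 11.8%, and sums in CPM ran from 3373 to 3742 for granulosa, 30790.0 to 31311.5 for luteal, 1486 to 2161 for theca, 5663 to 5828 for stromal, 1099 to 1124 for endothelial, 640.4 to 690.3 for macrophage and 372 to 565 for oocyte genes. TMM or DESeq2 scaling moved list medians by at most 0.0251 (log2). With 2 libraries the SD is itself imprecise. Of genes from 1 to 5 CPM, 12.1% lay more than 2-fold apart, and the part of depth in this was not tested.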

Other observations

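Several lysosome genes stood high beside the steroid enzymes. The 117 genes of the KEGG lysosome set named in the deposited annotation, of which 107 had a mean of 1 CPM or more, took 2.13% of counts in replicate 1 and 2.31% in replicate 2. Psap, the precursor of the saposins that help break down sphingolipids, had 3640.5 TPM in replicate 1 and 4198 TPM in replicate 2. Gm2a, the activator protein for ganglioside GM2 breakdown, had 2698 TPM in replicate 1 and 3075 TPM in replicate 2. Both thus lay above Star per length. They took the most counts of the set, with means of 3988 CPM for Psap and 4417 CPM for Gm2a, ahead of Ctsb with 1204 CPM. Of the peptidases, Lgmn, legumain, had 1152 TPM in replicate 1 and 1296 TPM in replicate 2, and Ctsb, cathepsin B, had 530.3 TPM and 543 TPM. The KEGG set for ovarian steroidogenesis, 51 genes with 31 at a mean of 1 CPM or more, took 2.71% in replicate 1 and 2.73% in replicate 2. Oxidative phosphorylation genes took 6.37% in replicate 1 and 7.11% in replicate 2, led by the mitochondrial genes whose copies are described above.

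Long noncoding RNAs took 1.02% of counts in each library. In CPM, which is not corrected for length, AU020206 was the highest with 1063 CPM in replicate 1 and 1152 CPM in replicate 2. Malat1, a nuclear RNA, had 710.5 CPM in replicate 1 and 818 CPM in replicate 2. Per length Gm26619 had 1025 TPM in replicate 1 and 936 TPM in replicate 2, beside 912 and 962 TPM for AU020206, so their order differed between the libraries. Among genes of high level, Nedd4, a ubiquitin ligase, and Hspa5, the main chaperone of the endoplasmic reticulum, lay more than 2-fold apart in opposite directions: Nedd4 had 1421 CPM in replicate 1 and 330.2 CPM in replicate 2, and Hspa5 had 376 CPM in replicate 1 and 1075 CPM in replicate 2. The genes in these paragraphs were chosen after their values were seen.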
